A study of Arabidopsis thaliana with 36 samples.

Results

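The 10 genes described here belong to aliphatic glucosinolate metabolism in Arabidopsis thaliana, and were taken by locus from the 32833 genes counted in every library. They are the regulators MYB28 (AT5G61420) and MYB29 (AT5G07690), the chain elongation enzymes BCAT4 (AT3G19710), MAM1 (AT5G23010) and MAM3 (AT5G23020), and the core structure enzymes CYP79F1 (AT1G16410), CYP79F2 (AT1G16400) and CYP83A1 (AT4G13770). The list ends with the side chain oxygenase FMO GS-OX3 (AT1G62560) and the nitrile specifier protein NSP3 (AT3G16390). The genes were chosen with earlier results of these data known, so counts of them set against the share of all genes give no independent support. RNA was sequenced from roots and, apart from them, shoots of seedlings 6 days after germination. Col-0 is the accession used as control, and beside it stood the mutants hy5 and phyAB. All 3 genotypes were sampled under days of 21 °C or 27 °C. This makes 12 groups of 3 libraries and 36 libraries in all. The bZIP factor HY5 acts in light signalling downstream of the phytochromes, red-light receptors that include PHYA and PHYB. Days had 16 h of light, and the 8 h nights were cooler, at 15 °C for the 21 °C plants and at 21 °C for the 27 °C plants. The temperature shift is put at 3 days of age, so 27 °C was not held from germination. The labels disagree on the time spent at 27 °C, with 4 h in the title and 3 days in the protocol, and its length is not known here. Alleles of the mutants are not stated in the labels. Nothing in the labels says whether replicates came from separate cultures, so p-values measure the spread between these libraries only, which may be technical.

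Aliphatic glucosinolates are sulfur-rich defence compounds made from methionine in plants of the cabbage order. MYB28 and MYB29 are transcription factors that switch on the pathway, usually together with the bHLH factors MYC2, MYC3 and MYC4. BCAT4 removes the amino group of methionine, and MAM1 and MAM3 catalyse the condensation that lengthens its side chain, MAM1 for shorter chains and MAM3 also for long ones. CYP79F1 and CYP79F2 convert the lengthened methionines to aldoximes, CYP79F2 mainly those with long chains, and CYP83A1 oxidises the aldoximes. FMO GS-OX3 oxygenates the sulfur of the finished side chain. When tissue is damaged, myrosinases such as TGG1 cleave glucosinolates, and nitrile specifier proteins such as NSP3 direct the products towards nitriles.

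Library depth was 14810514 to 24006279 counted reads in roots and 17008543 to 23880472 in shoots, and replicates differed by more than counting noise in all 36 pairs (chi-square per degree of freedom 3.19 to 14.4). HY5 stood at 8.43 to 11 CPM (read counts scaled to a common library size with TMM factors) in the hy5 roots and at 34.6 to 41.6 CPM in the Col-0 roots. In shoots the HY5 transcript gave no check of the labels, with 6.95 to 10.5 CPM in hy5 and 7.46 to 12.8 CPM in Col-0. PHYA was 11 to 16.8 CPM in the phyAB roots against 104 to 146 CPM in the Col-0 roots, and 22 to 59.7 CPM against 87.6 to 195 CPM in shoots. PHYB was 24.3 to 32.6 CPM in phyAB roots against 67.6 to 91 CPM in Col-0 roots, and 75.3 to 85.1 CPM against 85.5 to 113 CPM in shoots. Both phyAB root libraries numbered 3 have a source name that says shoot, while their title and tissue say root. In all root libraries 6 chloroplast genes that mark shoots summed to 25.1 to 350 CPM, against 57500 to 92300 CPM in the shoot libraries, so both were used as root. Transcripts of 11 seed storage and oil body genes summed to 255 to 2800 CPM in the phyAB shoots and to at most 12.1 CPM in the other shoots. A list of 7 root marker genes, CASP1 among them, summed to 5320 to 10400 CPM in the root libraries. In shoots at 21 °C the list summed to 4140 to 4460 CPM in phyAB and to 3880 to 4150 CPM in Col-0. At 27 °C it summed to 3470 to 3730 CPM in phyAB shoots and to 3790 to 3910 CPM in Col-0 shoots. CASP1 by itself averaged 110 to 152 CPM in the root groups. It averaged 10.1 and 18.8 CPM in the phyAB shoot groups, and at most 4.93 CPM in the other shoot groups. The other genes of this list are not given singly, and the list as a whole was lower in phyAB than in Col-0 shoots at 27 °C. Whether phyAB shoots held root material was not tested.

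Several of the genes lie next to a relative. On chromosome 1 of the TAIR10.1 assembly, CYP79F2 (5605044 to 5607498) and CYP79F1 (5608682 to 5612064) follow each other on the forward strand, 1183 bases apart, and their aligned coding bases are 91.9% identical. MAM1 (chromosome 5, 7703041 to 7706973) and MAM3 (7718118 to 7721866) stand in the same order on the forward strand, 11144 bases apart, with 83.8% identity. MYB28 and MYB29 lie far apart on chromosome 5, at 24689069 to 24691187 and 2446669 to 2448584, and share 76.7% of their aligned coding bases. FMO GS-OX3 (chromosome 1, 23159734 to 23162881), NSP3 (chromosome 3, 5562400 to 5564574) and CYP83A1 (chromosome 4, 7990429 to 7992429) overlap no other annotated gene. BCAT4 (chromosome 3, 6846969 to 6849582) is overlapped by AT3G19700 on the other strand, and whether the counting used strand is not known here, so reads of these genes may not be told apart.

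How far short reads can tell the CYP79F pair apart matters for the results on organs, so a stretch of coding sequence from each is shown, with capitals at the positions where they differ. The stretches are 60 bases long, differ at 4 positions, which is the median of 1527 such windows (range 0 to 15), and are read from the forward strand, CYP79F1 at chr1:5608968-5609027 and CYP79F2 at chr1:5605334-5605393.
CYP79F1: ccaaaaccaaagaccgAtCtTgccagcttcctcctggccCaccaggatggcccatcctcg
CYP79F2: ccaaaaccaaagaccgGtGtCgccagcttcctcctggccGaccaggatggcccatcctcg
Of all windows of 50 bases (the read length) in the exons, 86.5% in CYP79F1, 77% in CYP79F2 and 74.4% in NSP3 matched a single place in the genome within 2 mismatches, and 97.2% to 100% did in the other 7 genes. A single best place was held by 98.3% of windows in CYP79F1, 97.1% in CYP79F2 and 98.8% in NSP3, and by 100% in the other 7. Reads assigned to more than 1 place were not counted, so the first 3 genes may be read through part of their exons. Which of the 2 rules is nearer to the alignment used is not known here.

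The 250 bases before the annotated start are shown for 4 genes, because CYP79F1 and CYP79F2 differ in organ, CYP83A1 holds both motif types searched, and NSP3 was not called lower in the phyAB mutant. They are read 5′ to 3′ on the strand of each gene from the RefSeq TAIR10.1 genome: CYP79F1 at chr1:5608432-5608681 and CYP79F2 at chr1:5604794-5605043 on the forward strand, CYP83A1 at chr4:7992430-7992679 on the reverse strand, and NSP3 at chr3:5562150-5562399 on the forward strand. Capitals mark CACNTG, which includes the G-box CACGTG bound by bHLH factors such as the MYCs, on either strand. They also mark, on either strand, ACCTACC, one of the AC elements bound by MYB factors. Also searched were the AC elements ACCAACC, of the same type, and the further forms ACCTAAC, together with its relative ACCAAAC.
CYP79F1: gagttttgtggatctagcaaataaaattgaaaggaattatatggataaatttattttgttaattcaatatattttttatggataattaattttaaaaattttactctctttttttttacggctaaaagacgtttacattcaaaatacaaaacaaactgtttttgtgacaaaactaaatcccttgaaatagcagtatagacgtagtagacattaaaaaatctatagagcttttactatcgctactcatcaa
CYP79F2: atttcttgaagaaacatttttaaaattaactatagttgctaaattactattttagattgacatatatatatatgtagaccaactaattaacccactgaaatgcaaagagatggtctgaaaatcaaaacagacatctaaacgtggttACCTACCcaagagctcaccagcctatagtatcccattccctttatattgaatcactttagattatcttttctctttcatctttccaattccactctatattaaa
CYP83A1: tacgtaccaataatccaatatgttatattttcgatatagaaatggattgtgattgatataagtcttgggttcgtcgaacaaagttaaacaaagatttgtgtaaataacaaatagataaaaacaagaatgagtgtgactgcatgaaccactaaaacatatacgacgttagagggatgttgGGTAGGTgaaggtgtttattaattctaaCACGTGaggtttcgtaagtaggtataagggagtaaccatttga
NSP3: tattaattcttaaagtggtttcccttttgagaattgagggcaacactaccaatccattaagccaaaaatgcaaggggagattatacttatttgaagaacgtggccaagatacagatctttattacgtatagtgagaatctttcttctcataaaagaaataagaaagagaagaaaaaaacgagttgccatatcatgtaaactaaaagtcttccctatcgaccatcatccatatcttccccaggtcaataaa
Of the 10 genes, CYP83A1 holds CACGTG, which 6.49% of 27443 Arabidopsis promoters of this length hold. CACNTG is in MAM3 and CYP83A1, against 26.2% of promoters. ACCTACC is in CYP79F2 and CYP83A1, against 1.16% of promoters, and the other AC elements, held by 2.46% to 8.29% of promoters, are in none of the 10. With the first 50 bases of the transcript added, CACGTG was also found in FMO GS-OX3 and ACCTACC also in CYP79F1, against 7.68% and 1.38% of promoters. The bZIP core ACGT, which is contained in CACGTG, is in 8 of the 10 genes and in 44.1% of promoters, and was left in lower case. These matches describe letters in a window and were not tested against the expression values.

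The genes differed widely in level and in organ in Col-0 at 21 °C. Per kilobase of exon, CYP83A1 (157 ± 14.9 CPM per kb, SD, n = 3), MAM1 (143 ± 6.46) and BCAT4 (82.4 ± 7.13) were the most abundant in shoots. In roots MAM3 led with 129 ± 9.8 CPM per kb, followed by BCAT4 (87.5 ± 9.08) and CYP83A1 (67 ± 8.35). The rest of each gene's values are in CPM on 1 scale for all 36 libraries, and are compared between groups of the same gene. Of the 10 genes, 9 differed between the organs in the quasi-likelihood test of edgeR, with p adjusted by Benjamini-Hochberg over all genes (adjusted p under 0.05), and so did 78.6% of the 21598 genes tested. NSP3, MAM3 and CYP79F2 were higher in roots, against 40.5% of all genes, and the other 6 called genes were higher in shoots, against 38.1%. Among these 6, MYB29 and CYP79F1 passed the filter on low counts through their shoot reads alone. BCAT4 was not called, with 127 ± 13.2 CPM in roots and 120 ± 10.3 CPM in shoots (log2 difference 0.09 ± 0.14 SE, adjusted p = 0.57). In bulk tissue, fewer cells of a type and less RNA per cell cannot be told apart.

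NSP3 was nearly a root transcript. In Col-0 roots at 21 °C it stood at 57, 61.2 and 54.7 CPM, and in Col-0 shoots at 0.602, 0.352 and 0.641 CPM, which rest on 5 to 11 reads per library. Over all 18 shoot libraries NSP3 had 1 to 17 reads. The organs differed by 6.71 ± 0.29 SE on the log2 scale (edgeR adjusted p = 1.64e-19).

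MYB29 and CYP79F1 were barely detected in roots. MYB29 had 0 or 1 read in each of the 18 root libraries and 91 to 346 reads in each shoot library. In Col-0 at 21 °C a single MYB29 read in 3 root libraries stood against 943 in 3 shoot libraries, a ratio of scaled levels of 1565 with an exact 95% counting interval of 280 to 61894. At 27 °C the Col-0 roots held no MYB29 read, which puts shoots at least 623-fold higher when 3 reads over the group are taken as the floor. CYP79F1 had 0 to 6 reads in root libraries and 422 to 2979 in shoot libraries, and its ratio of shoot to root in Col-0 at 21 °C was 1963 (interval 952 to 4883). These intervals cover counting error only. MYB76, another activator of the pathway that lies 1442 bases from MYB29, had no read in any root library and 1.8 ± 0.304 CPM in Col-0 shoots at 21 °C.

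The related enzymes had opposite levels in the organs. CYP79F2, in contrast to CYP79F1, was present in every root library (162 to 2997 reads), with 65, 83.5 and 76.8 CPM in Col-0 roots at 21 °C against 34, 27.8 and 27 CPM in shoots. Its roots were higher by 1.34 ± 0.13 on the log2 scale (edgeR adjusted p = 3.66e-11). Per kilobase, CYP79F1 exceeded CYP79F2 in the Col-0 shoots at 21 °C by ratios of 2.96, 3.52 and 4.14 in the 3 libraries. In phyAB shoots at 27 °C these ratios were 0.957, 1 and 1.03. MAM1 had 38.9, 46.9 and 52.7 CPM in Col-0 roots and 278, 304 and 297 CPM in shoots at 21 °C, whereas MAM3 had 216, 250 and 244 CPM in roots and 73.3, 70.6 and 67 CPM in shoots. The per-kilobase ratio of MAM1 to MAM3 was 0.173 ± 0.0168 in those roots and 3.73 ± 0.301 in those shoots (SD, n = 3). MAM1 was lower in roots by 2.67 ± 0.12, and MAM3 higher by 1.75 ± 0.11, on the log2 scale (edgeR adjusted p = 1.77e-19 and 4.65e-15).

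**Figure D1:**
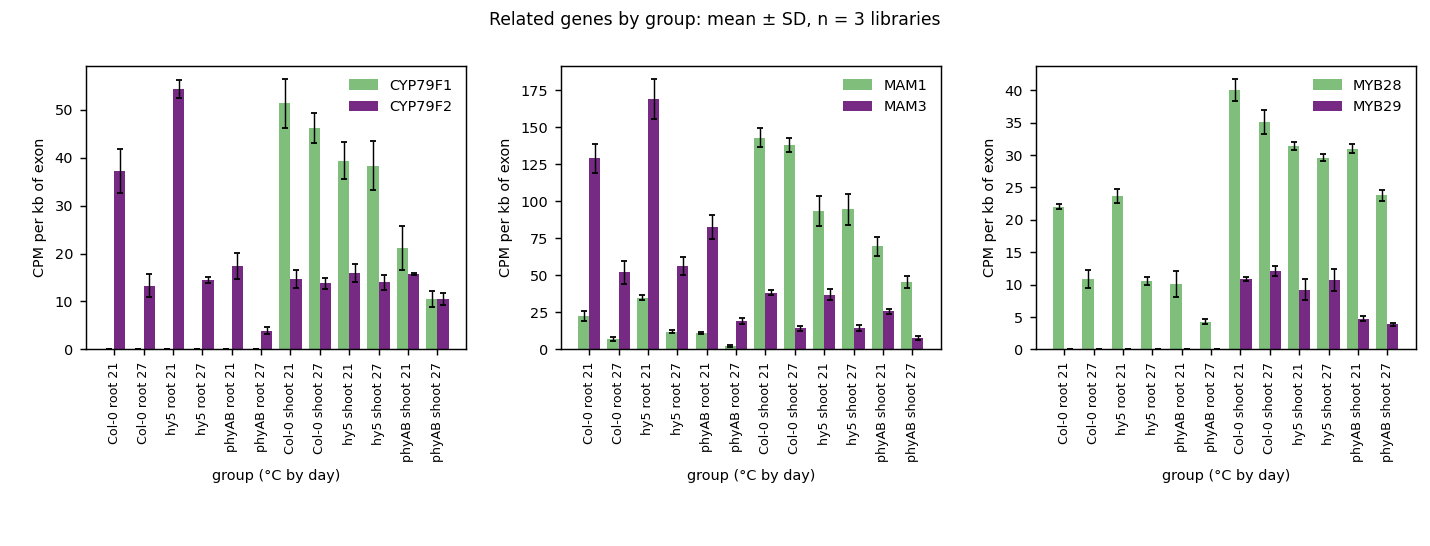
Level per kilobase of exon (CPM per kb) of 3 pairs of related genes in the 12 groups. Bars are means of 3 libraries and whiskers their SD. CYP79F1 and MYB29 have no visible bar in roots, and MAM1 and MAM3 exchange ranks between roots and shoots.

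Of the remaining genes, MYB28 was lower in Col-0 roots than in shoots at 21 °C by 0.86 ± 0.08, CYP83A1 by 1.23 ± 0.15 and FMO GS-OX3 by 3.35 ± 0.19 on the log2 scale (edgeR adjusted p at most 4.76e-09). FMO GS-OX3 stood at 4.89, 6 and 4.58 CPM in those roots and at 55.1, 58.5 and 45.1 CPM in those shoots. Without scaling factors the median of all genes moved to 0.81 in favour of roots, and relative to that median no direction changed. On that scale the MYB28 difference was -0.10 and did not pass (adjusted p = 0.279), and BCAT4 was higher in roots by 0.85 (adjusted p = 1.23e-06). Chloroplast marker genes summed to 134 to 167 CPM in these roots and to 72300 to 83500 CPM in these shoots, and the part of shoot material in the root values was not tested.

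**Figure D2:**
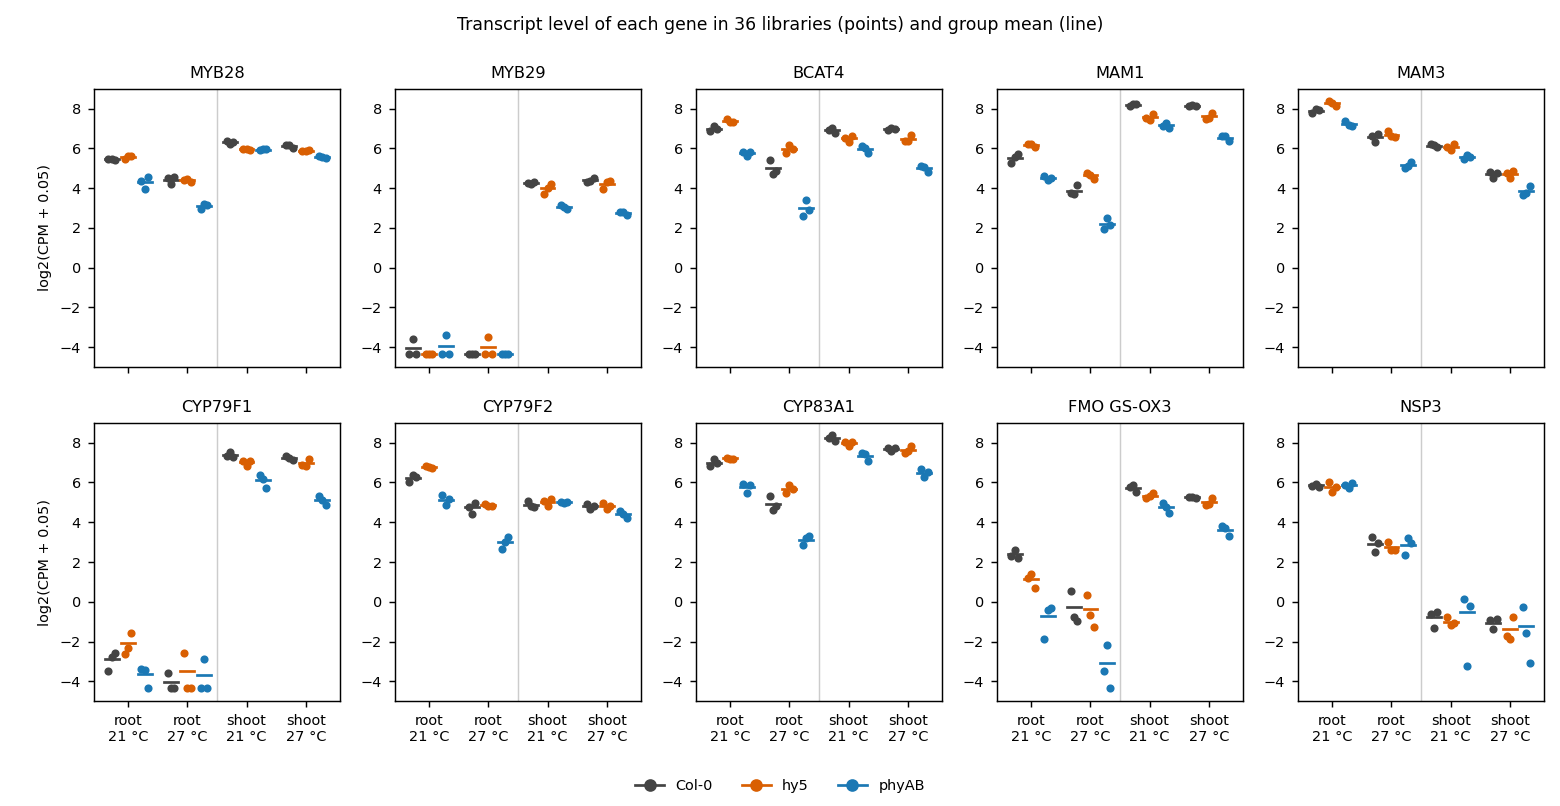
Transcript level of the 10 genes in 36 libraries, as log2(CPM + 0.05), by organ and day temperature. Points are libraries, short lines the log2 of group means, and colours the genotypes. In roots the 8 genes that could be tested are lower at 27 °C, and the phyAB points lie lowest in most panels but not in that of NSP3.

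All 8 genes that could be tested in roots were lower at 27 °C than at 21 °C, in each of the 3 genotypes. MYB29 and CYP79F1 had too few reads for a test there. Over all 20355 genes tested, 21.8% fell at 27 °C in Col-0 roots, 23.9% in hy5 roots and 19.2% in phyAB roots. The median log2 fold change of the 8 genes was -1.83 in Col-0, and in the mutants -1.57 for hy5 and -2.51 for phyAB, against 0.00, 0.02 and 0.01 over all genes. No value of any of the 8 genes at 27 °C reached the range at 21 °C of the same genotype. How many of all genes are separated in this way was not counted, so this has no background. The summed level of the 9 genes other than NSP3 was 597 to 715 CPM at 21 °C and 183 to 247 CPM at 27 °C in Col-0 roots, and 303 to 370 and 63.6 to 79.4 CPM in phyAB roots.

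The activator MYB28 stood at 44.3, 43.9 and 42.8 CPM in Col-0 roots at 21 °C, compared with 22.8, 18.3 and 23.4 CPM at 27 °C. In hy5 roots the values were 44.4, 48.1 and 48.4 against 21.2, 21.9 and 19.5 CPM, and in phyAB roots 20.6, 15.6 and 23.5 against 7.58, 9.09 and 8.9 CPM. The warm phyAB roots thus lay lowest, and the phyAB roots at 21 °C overlapped the warm roots of the other genotypes. MYB28 fell by 1.05 ± 0.11 on the log2 scale in Col-0, by 1.20 ± 0.11 in hy5 and by 1.25 ± 0.13 in phyAB (edgeR adjusted p = 8.08e-07, 1.12e-07 and 9.72e-07).

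Among the chain elongation genes, BCAT4 had 116, 141 and 124 CPM in Col-0 roots at 21 °C and 42.7, 26.4 and 29 CPM at 27 °C. It had 180, 162 and 159 against 54.1, 70.7 and 62.8 CPM in hy5 roots, and 55.9, 49.1 and 56.4 against 6.09, 10.4 and 7.45 CPM in phyAB roots. Its levels at 21 °C were highest in hy5 and lowest in phyAB, with no overlap between genotypes. BCAT4 fell by 1.98 ± 0.16 in Col-0, by 1.45 ± 0.15 in hy5 and by 2.78 ± 0.18 in phyAB on the log2 scale (edgeR adjusted p at most 4.7e-07). MAM3, the most abundant of the 10 genes in roots, went from 216 to 250 CPM at 21 °C to 78.9 to 107 CPM at 27 °C in Col-0. In hy5 roots it went from 282 to 331 to 93.9 to 115 CPM, and in phyAB roots from 141 to 168 to 32.6 to 39.5 CPM. Its folds, with those of MAM1, ran from 1.34 ± 0.11 lower for MAM3 in Col-0 to 2.34 ± 0.15 lower for MAM1 in phyAB (edgeR adjusted p at most 6.04e-08). MAM1 itself ended at 12.8 to 17.6 CPM in warm Col-0 roots, 22.2 to 27 CPM in hy5 and 3.83 to 5.53 CPM in phyAB.

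The core structure genes fell as well. CYP79F2 went from 65 to 83.5 CPM to 21.6 to 31.3 CPM in Col-0 roots, and its falls were 1.51 ± 0.13, 1.95 ± 0.13 and 2.19 ± 0.15 on the log2 scale in Col-0, hy5 and phyAB (edgeR adjusted p at most 1.24e-07). CYP83A1 had 112, 144 and 128 CPM in Col-0 roots at 21 °C and 39.7, 24.1 and 27.9 CPM at 27 °C. It had 152, 146 and 146 against 44.3, 58.4 and 50.9 CPM in hy5 roots, and 59.7, 44.4 and 58.6 against 7.15, 9.13 and 9.7 CPM in phyAB roots. In the warm roots the genotypes did not overlap, with hy5 highest and phyAB lowest. CYP83A1 fell by 2.09 ± 0.16, 1.56 ± 0.15 and 2.68 ± 0.18 on the log2 scale in Col-0, hy5 and phyAB (edgeR adjusted p at most 2.07e-07).

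FMO GS-OX3, the lowest in Col-0 roots of the 8 genes tested there, went from 4.89, 6 and 4.58 CPM to 1.4, 0.532 and 0.46 CPM in Col-0. In hy5 roots it went from 2.27, 2.54 and 1.59 to 1.23, 0.589 and 0.361 CPM, and in phyAB roots from 0.225, 0.708 and 0.759 to 0.039, 0.168 and 0 CPM. The phyAB values rest on 0 to 16 reads per library. Its falls were 2.70 ± 0.36, 1.57 ± 0.42 and 2.92 ± 0.88 on the log2 scale (edgeR adjusted p = 8.83e-06, 0.00419 and 0.0133). In phyAB the call was lost without replicate 1 at 27 °C (adjusted p = 0.054), and without both libraries numbered 3, a choice made after seeing the data, the fall was 2.18 (adjusted p = 0.119).

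NSP3 had the largest fitted fall of the 8 genes in each genotype, though in Col-0 and phyAB it lay within 1 standard error of that of FMO GS-OX3. Its Col-0 root values were 57, 61.2 and 54.7 CPM at 21 °C and 9.5, 5.61 and 7.59 CPM at 27 °C. They were 64.4, 46.5 and 55.3 against 7.85, 6.08 and 5.95 CPM in hy5, and 57.9, 53.6 and 63.2 against 5.04, 9.09 and 7.78 CPM in phyAB. The genotypes overlapped at each temperature, and the temperatures were far apart in each genotype. The falls were 2.95 ± 0.17, 3.09 ± 0.18 and 3.03 ± 0.18 on the log2 scale, or 7.73-fold, 8.52-fold and 8.15-fold (edgeR adjusted p at most 2.31e-09). The neighbouring relative NSP1, 1508 bases away, stood at 472 ± 42.5 and 436 ± 49.1 CPM in Col-0 roots at 21 °C and 27 °C and was not called (-0.14 ± 0.10, edgeR adjusted p = 0.277). NSP4, another root-abundant specifier protein, stood at 53.6 ± 4.62 and 62.6 ± 8.33 CPM there and was not called either. Chloroplast marker genes summed to 297 to 350 CPM in the warm Col-0 roots against 134 to 167 CPM at 21 °C, and their part in the root results was not tested.

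**Figure D3:**
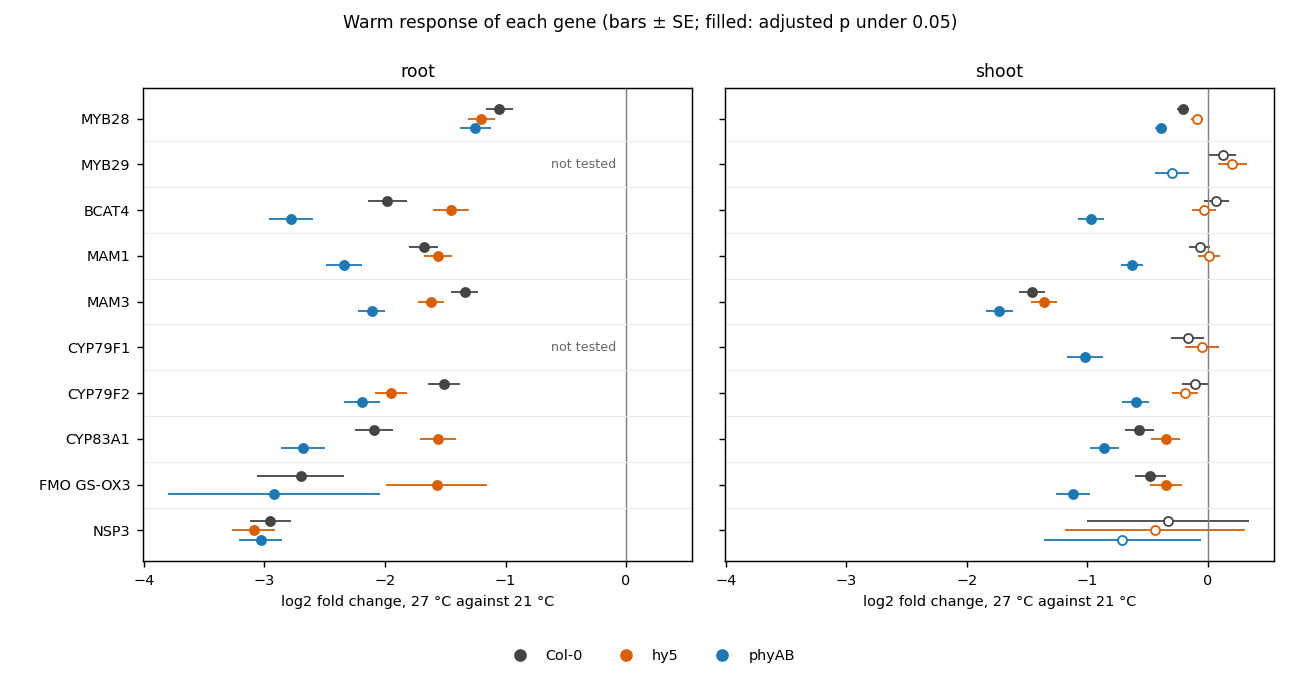
Log2 fold change of the 10 genes between 27 °C and 21 °C in roots and shoots of the 3 genotypes. Bars are standard errors and filled points have an adjusted p under 0.05. In roots all 8 tested genes lie at -1.05 or lower, and in shoots MAM3 alone lies below -1 in all 3 genotypes.

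The 3 shoot libraries at 27 °C numbered 3, 1 of each genotype, stood apart with 27.8% to 34.6% of reads at more than 1 place, against 8.29% to 16.5% in the other shoot libraries. The counts of falls in shoots below were the same without these 3, a choice made after seeing the data. In the shoots of Col-0 and hy5 the warm response was small for most of the genes, MAM3 apart. In Col-0 shoots 4 of the 10 genes fell, and 23.2% of the 20100 genes tested fell. In hy5 shoots 3 fell, against 22.5% of genes, and in phyAB shoots 8 fell, against 22.1%. None of the 10 rose. The median log2 fold change of the 10 was -0.19, -0.14 and -0.78 in Col-0, hy5 and phyAB. With 10 genes, the counts in Col-0 and hy5 lie little above the background share, and the count in phyAB lies further above it.

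MAM3 stood at 73.3, 70.6 and 67 CPM in Col-0 shoots at 21 °C and at 28, 22.8 and 27.1 CPM at 27 °C. It stood at 68, 60.7 and 73.9 against 27.4, 22.8 and 29.1 CPM in hy5 shoots, and at 43.4, 50.4 and 47.3 against 12.6, 13.4 and 17 CPM in phyAB shoots. Col-0 and hy5 overlapped at both temperatures and phyAB lay below them. MAM3 fell by 1.46 ± 0.11, 1.36 ± 0.11 and 1.73 ± 0.11 on the log2 scale (edgeR adjusted p at most 3.67e-08). The per-kilobase ratio of MAM1 to MAM3 in Col-0 shoots accordingly went from 3.39, 3.83 and 3.96 to 8.85, 9.11 and 11.5.

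The other falls in Col-0 shoots were those of CYP83A1 (272 to 329 CPM at 21 °C, 192 to 216 CPM at 27 °C), FMO GS-OX3 (45.1 to 58.5 and 37.8 to 38.9 CPM) and MYB28 (75.5 to 82.3 and 65.4 to 72.3 CPM). They came to 0.57 ± 0.12, 0.48 ± 0.13 and 0.21 ± 0.05 on the log2 scale (edgeR adjusted p = 0.000665, 0.00445 and 0.0017). In hy5 shoots CYP83A1 and FMO GS-OX3 each fell by 0.35 (SE 0.12 and 0.13, edgeR adjusted p = 0.0215 and 0.0356). Each of these hy5 calls was lost when 1 of 4 libraries was left out, with adjusted p of 0.0609 to 0.0915 for CYP83A1 and 0.0696 to 0.133 for FMO GS-OX3. The libraries were hy5 shoot 27 °C replicates 1 and 2 and 21 °C replicate 3 for both genes, with 21 °C replicate 1 for CYP83A1 and 21 °C replicate 2 for FMO GS-OX3. MYB29 was not called, with 18.4 to 19.6 CPM at 21 °C and 19.7 to 22.5 CPM at 27 °C in Col-0 shoots (0.12 ± 0.11, edgeR adjusted p = 0.415).

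In phyAB shoots BCAT4, which was not called in the other genotypes, went from 68.2, 63.8 and 53.5 CPM to 34, 33.4 and 27.9 CPM. In Col-0 shoots it had 123, 128 and 108 CPM at 21 °C and 123, 132 and 127 CPM at 27 °C. CYP79F1 went from 81.9, 73 and 52.6 CPM to 40, 34.1 and 29.2 CPM in phyAB, and had 163, 186 and 154 against 162, 151 and 141 CPM in Col-0. The temperatures did not overlap in phyAB and did in Col-0 for both genes. The phyAB falls were 0.97 ± 0.11 and 1.02 ± 0.15 (edgeR adjusted p = 1.14e-06 and 2.33e-05). Those of FMO GS-OX3, CYP83A1, MAM1, CYP79F2 and MYB28 in phyAB shoots ran from 1.12 ± 0.14 down to 0.39 ± 0.05 on the log2 scale (edgeR adjusted p at most 0.000269).

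The difference between the organs was tested itself, in a fit of all 36 libraries. In Col-0 the warm response of 7 of the 10 genes was lower in roots than in shoots, against 6.92% of 21598 genes in that direction. In hy5 it was lower for 6 genes, against 6.69%, and in phyAB for 5, against 4.46%. MYB28, MAM1, BCAT4, CYP79F2 and CYP83A1 were called in each genotype. MYB29 and CYP79F1, called in none, had at most 1 and 6 reads per root library. They entered this fit through their shoot reads and could not show a root response. The largest called difference in Col-0 was that of NSP3 at -2.61 ± 0.81 (edgeR adjusted p = 0.0257), where the shoot side rests on 5 to 11 reads per library, and that of BCAT4 was -2.05 ± 0.20 (edgeR adjusted p = 4.11e-08). MAM3 was not called in any genotype, with 0.12 ± 0.16 for Col-0, -0.23 ± 0.16 for hy5 and -0.36 ± 0.17 for phyAB (edgeR adjusted p = 0.674, 0.367 and 0.18).

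The phyAB roots held less of 7 of the 8 transcripts that could be tested, and NSP3 was not called. These 7 genes were lower than in Col-0 at 21 °C and at 27 °C, against 17.9% and 16.6% of all genes lower, and the count was also 7 at each temperature without both phyAB libraries numbered 3. At 21 °C the differences ran from -0.63 ± 0.11 for MAM3 to -3.18 ± 0.41 for FMO GS-OX3. At 27 °C they ran from -1.32 ± 0.13 for MYB28 to -3.40 ± 0.78 for FMO GS-OX3 (edgeR adjusted p at most 0.00242). FMO GS-OX3 averaged 0.564 CPM at 21 °C and 0.0689 CPM at 27 °C in phyAB roots, so the largest difference at each temperature rests on few reads. The median of the 8 genes was -1.10 and -1.71, and that of all genes 0.00 at both temperatures. In each of the 7 genes the 3 phyAB libraries lay below the 3 Col-0 libraries, and the share of all genes separated in this way was not counted. NSP3 differed by 0.03 ± 0.15 at 21 °C and by -0.04 ± 0.20 at 27 °C (edgeR adjusted p = 0.893 and 0.896), with overlapping values. The HY5 transcript was lower in phyAB roots by 1 ± 0.10 at 21 °C and by 1.38 ± 0.10 at 27 °C (edgeR adjusted p at most 2.27e-07), and its part in these differences was not tested. The 7 root marker genes summed to 5320 to 5750 CPM in phyAB roots against 7500 to 9170 CPM for Col-0 at 21 °C, and to 5960 to 6220 against 8440 to 10400 CPM at 27 °C. The 6 chloroplast genes summed to 60.9 to 98.1 against 134 to 167 CPM at 21 °C, and to 106 to 201 against 297 to 350 CPM at 27 °C. No gene of either list was at 0 throughout a group, and their part in the phyAB differences was not tested.

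In shoots 8 of the 10 genes were lower in phyAB at 21 °C and 9 at 27 °C, against 20.2% and 23.7% of all genes. MYB29 had 8.93, 8.28 and 7.58 CPM in phyAB against 18.9, 18.4 and 19.6 CPM in Col-0 at 21 °C, and 6.99, 6.97 and 6.3 against 19.7, 20.8 and 22.5 CPM at 27 °C. It was lower by 1.20 ± 0.12 and 1.62 ± 0.13, while MYB28 was lower by 0.37 ± 0.05 and 0.55 ± 0.05 on the log2 scale (edgeR adjusted p at most 1.09e-05). The per-kilobase ratio of MYB28 to MYB29 was 5.89 to 7.08 in phyAB against 3.55 to 3.8 in Col-0 at 21 °C, with no overlap. CYP79F1 was lower by 1.28 ± 0.14 and 2.13 ± 0.15, and BCAT4 by 0.96 ± 0.10 and 2 ± 0.11 (edgeR adjusted p at most 1.88e-06). CYP79F2 was the exception among the biosynthesis genes, with 32.2, 31.4 and 32.2 CPM in phyAB and 34, 27.8 and 27 CPM in Col-0 at 21 °C (0.10 ± 0.11, edgeR adjusted p = 0.489). At 27 °C it was lower by 0.38 ± 0.11 (edgeR adjusted p = 0.00973). That call was lost without phyAB shoot replicate 3 at 27 °C (adjusted p = 0.0517), without the 3 shoot libraries at 27 °C numbered 3 (adjusted p = 0.107) and without scaling factors, where the median of all genes moved to 0.14 (-0.23, adjusted p = 0.11). The seed transcripts that stood apart in phyAB shoots summed to 383 to 2800 CPM at 21 °C and 255 to 1430 CPM at 27 °C. Genes of myrosin and guard cells (FAMA, TGG1 and TGG2) summed to 798 to 915 CPM in phyAB shoots and 1570 to 1760 CPM in Col-0 shoots at 21 °C, and to 1220 to 1510 and 1930 to 2300 CPM at 27 °C. Chloroplast marker genes summed to 57500 to 59900 and 72300 to 83500 CPM at 21 °C, and to 63400 to 70700 and 89200 to 91000 CPM at 27 °C. The part of these 3 lists in the shoot differences was not tested.

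**Figure D4:**
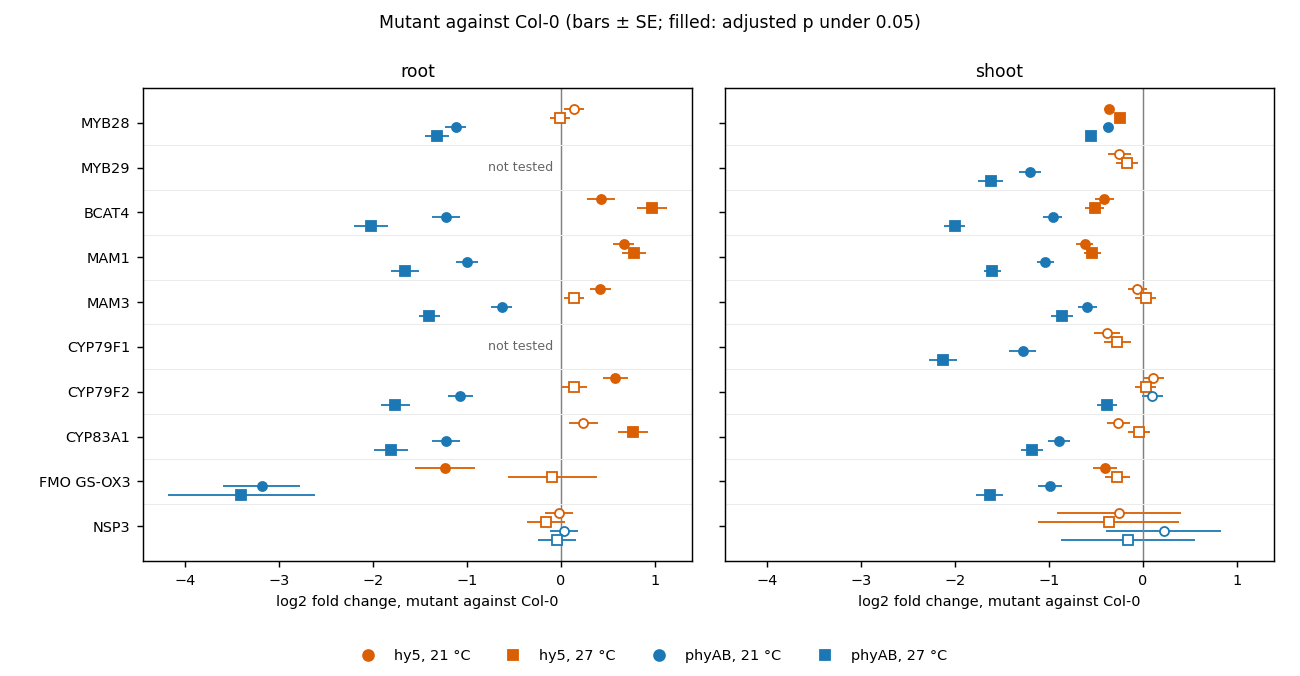
Log2 fold change of the 10 genes in hy5 and in phyAB against Col-0, at 21 °C (circles) and 27 °C (squares), in roots and shoots. Bars are standard errors and filled points have an adjusted p under 0.05. At 21 °C the phyAB points lie left of 0 except those of NSP3 in both organs and of CYP79F2 in shoots, at 27 °C all lie left of it, and the hy5 points of BCAT4 and MAM1 lie right of 0 in roots and left of it in shoots.

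In hy5 MAM1 and BCAT4 were higher than Col-0 in roots and lower in shoots at both temperatures, and the difference between the organs was not tested for the mutants' effects. FMO GS-OX3 was lower in both organs at 21 °C. In hy5 roots at 21 °C MAM1 (67.4 to 74 CPM against 38.9 to 52.7), CYP79F2 (106 to 113 against 65 to 83.5), BCAT4 and MAM3 were higher, by 0.67 ± 0.11, 0.58 ± 0.13, 0.43 ± 0.15 and 0.42 ± 0.11 on the log2 scale (edgeR adjusted p = 0.000141, 0.00134, 0.0308 and 0.00474). These 4 of 8 genes stand against 16.7% of all genes higher. FMO GS-OX3 was lower by 1.23 ± 0.32 (edgeR adjusted p = 0.00559), and 18.4% of all genes were lower. The BCAT4 call was lost without Col-0 root 21 °C replicate 1 or 3 or hy5 root 21 °C replicate 1 or 2 (adjusted p of 0.0545 to 0.114). At 27 °C BCAT4, MAM1 and CYP83A1 were higher in hy5 roots by 0.97 ± 0.16, 0.78 ± 0.13 and 0.77 ± 0.16 (edgeR adjusted p at most 0.00081), against 16% of all genes higher. MYB28 did not pass in roots, with differences of 0.14 ± 0.11 and -0.01 ± 0.11 at the 2 temperatures (edgeR adjusted p = 0.334 and 0.938). Chloroplast marker genes summed to 25.1 to 30.8 CPM in hy5 roots at 21 °C, where Col-0 roots had 134 to 167 CPM, and their part was not tested.

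In hy5 shoots MAM1 had 186, 174 and 215 CPM at 21 °C against 278, 304 and 297 CPM in Col-0, and 177, 186 and 219 against 278, 294 and 277 CPM at 27 °C. Its values did not overlap with Col-0 at either temperature, and it was lower by 0.62 ± 0.09 and 0.54 ± 0.09 (edgeR adjusted p = 0.000219 and 0.000859). BCAT4 was lower by 0.41 ± 0.10 and 0.51 ± 0.10, and MYB28 by 0.36 ± 0.05 and 0.24 ± 0.05 (edgeR adjusted p at most 0.00927). FMO GS-OX3 was lower at 21 °C by 0.40 ± 0.13 (edgeR adjusted p = 0.0346). In all, 4 genes were lower at 21 °C and 3 at 27 °C, against 8.94% and 6.06% of all genes. The FMO GS-OX3 call was lost when Col-0 or hy5 shoot replicate 1 or 2 at 21 °C was left out (adjusted p of 0.09 to 0.126), and that of BCAT4 at 21 °C without hy5 replicate 2 (adjusted p = 0.0557). The myrosin and guard cell genes summed to 1140 to 1240 CPM in hy5 shoots and 1570 to 1760 CPM in Col-0 shoots at 21 °C, and to 1170 to 1370 and 1930 to 2300 CPM at 27 °C. The root marker list, which includes the abundant PYK10, summed to 2290 to 2760 and 3880 to 4150 CPM at 21 °C, and to 2390 to 2600 and 3790 to 3910 CPM at 27 °C. The part of these lists in the hy5 shoot differences was not tested. NSP3 was not called between hy5 and Col-0 in either organ at either temperature (edgeR adjusted p of 0.569 to 0.921).

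Whether the mutants change the warm response was tested as the difference between responses. In roots no gene of the 8 was called for hy5 (0.413% of all genes called) or for phyAB (0.0983%). At an unadjusted p under 0.05 the phyAB fall was larger for MAM1, MAM3, BCAT4, CYP79F2 and CYP83A1, by 0.59 to 0.80 on the log2 scale. The share of all genes with an unadjusted p under 0.05 is not known here, so this count has no background. MAM3 was nearest the threshold, at -0.77 ± 0.15 (edgeR adjusted p = 0.0585), and it passed in 6 alternatives. These were DESeq2 (adjusted p = 0.00091), no scaling factors (0.045), no filter on low counts (0.0194), the replicate block (0.0413), the fit of both organs (0.0283) and leaving out Col-0 root 27 °C replicate 2 (0.018). For hy5 roots 3 genes had an unadjusted p under 0.05, again without a share over all genes, and DESeq2 called none. The NSP3 responses differed by -0.14 ± 0.25 in hy5 and by -0.08 ± 0.25 in phyAB (edgeR adjusted p = 0.909 and 0.956).

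In shoots the phyAB response was more negative than that of Col-0 for BCAT4 by 1.04 ± 0.14, for CYP79F1 by 0.84 ± 0.20 and for MAM1 by 0.56 ± 0.13 (edgeR adjusted p = 0.000803, 0.0271 and 0.023). These 3 of 10 genes stand against 1.88% of all genes in that direction. BCAT4 passed with each single library left out. CYP79F1 was lost without any 1 of 6 libraries (adjusted p of 0.0529 to 0.0686) and MAM1 without any 1 of 4 (0.0528 to 0.0728). For both these were Col-0 shoot 21 °C replicate 1, Col-0 shoot 27 °C replicate 2, phyAB shoot 21 °C replicate 2 and phyAB shoot 27 °C replicate 3, and for CYP79F1 also phyAB shoot 21 °C replicate 1 and 27 °C replicate 2. Without the 3 shoot libraries at 27 °C numbered 3, BCAT4 alone was called (-0.96, adjusted p = 0.00511), with MAM1 at 0.056 and CYP79F1 at 0.0669. With the replicate block 5 genes were called, CYP79F2 (-0.49, adjusted p = 0.0167) and FMO GS-OX3 (-0.64, adjusted p = 0.0484) beside these 3. For hy5 shoots no gene of the 10 was called by edgeR or by DESeq2, none had an unadjusted p under 0.05, and 0.00498% of all genes were called.

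The wider pathway was described with a list of 43 further genes of glucosinolate synthesis, transport and breakdown, of which 36 passed the filter on low counts in roots and 41 in shoots. In warm Col-0 roots 19 of the 36 fell and 2 rose, against 21.8% and 21.7% of all genes. By role, 6 of 6 chain elongation genes and 9 of 10 core structure genes fell, and 0 of 6 breakdown genes did. The largest falls were those of FMO GS-OX1 (2.25 ± 0.36 on the log2 scale), the isomerase subunits IPMI-SSU2 (1.82 ± 0.14) and IPMI-SSU3 (1.76 ± 0.11) and the dehydrogenase IPMDH1 (1.77 ± 0.11). IPMDH1 went from 208 to 263 CPM to 59.5 to 75.7 CPM. They were followed by the glutathione transferases GSTU20 and GSTF11, the plastid keto acid carrier BASS5 and the glucosyltransferase UGT74C1, which fell by 1.46 to 1.76. The 2 that rose, named after their values were seen, were the bHLH factors MYC2 (0.43 ± 0.07) and MYC3 (0.29 ± 0.06). The median log2 fold change of the list was -0.49 in Col-0 roots.

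In warm Col-0 shoots 24 of the 41 fell and 3 rose, against 23.2% and 22.5% of all genes, and all 6 chain elongation genes were among those that fell. IPMI-SSU3 was among the 8 largest falls in both organs. SDI2 and SDI1, which are induced by sulfur deficiency and repress MYB28 activity, fell by 2.46 ± 0.22 and 1.88 ± 0.46, and SDI2 went from 38.7 to 45.8 CPM to 5.54 to 12.1 CPM. FMO GS-OX2, the epithiospecifier ESP and the glucosinolate importer GTR2 fell by 1.32 ± 0.23, 1.05 ± 0.27 and 0.92 ± 0.07. IPMI-SSU3, the sulfate activation enzyme APK1 and the C-S lyase SUR1 fell by 0.74 ± 0.12, 0.69 ± 0.09 and 0.55 ± 0.08. All adjusted p of these named shoot genes were at most 0.00371 in edgeR.

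**Figure D5:**
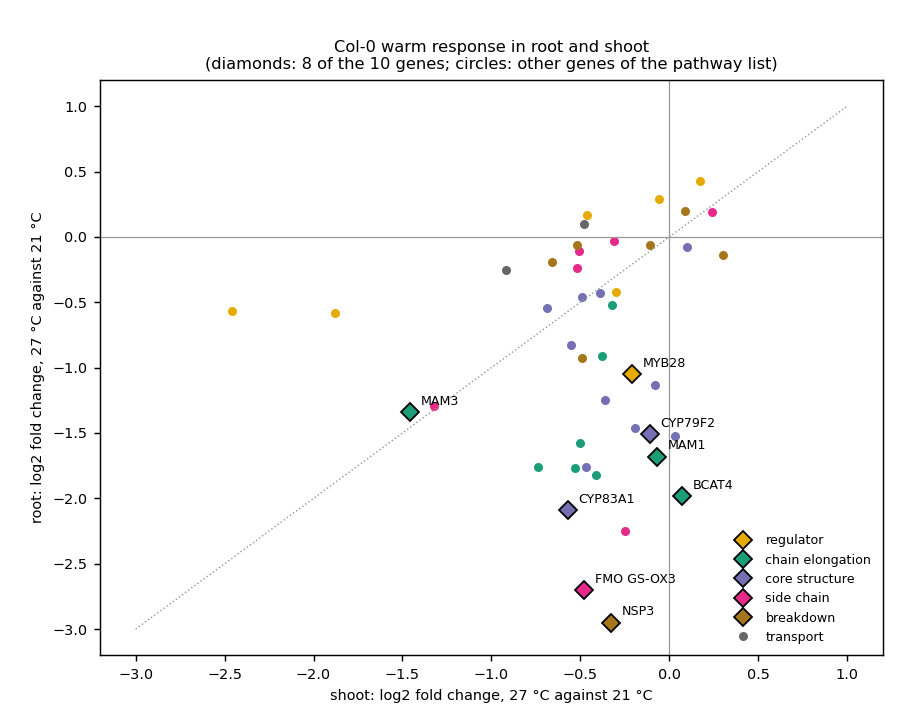
Log2 fold change between 27 °C and 21 °C in Col-0 roots (vertical axis) against Col-0 shoots (horizontal axis), for 8 of the 10 genes (diamonds) and the further pathway genes tested in both organs (circles), coloured by role. The dotted line marks equal responses. MAM3 lies near it, whereas MYB28, CYP79F2, MAM1, BCAT4, CYP83A1, FMO GS-OX3 and NSP3 lie below it.

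Among the pathway genes phyAB roots were lower for 21 of 36 at 21 °C and 16 at 27 °C, against 17.9% and 16.6% of all genes lower, and higher for 4 and 7, against 17.2% and 14.6% of all genes higher. All 10 core structure genes were lower at 21 °C, and 4 of 6 breakdown genes were higher at both temperatures. The largest root differences were FMO GS-OX2 (-3 ± 0.76) and FMO GS-OX1 (-1.48 ± 0.35) at 21 °C, and GSTF11 (-2.60 ± 0.22), GSTU20 (-1.79 ± 0.13), IPMI-SSU3 (-1.56 ± 0.12), UGT74C1 (-1.48 ± 0.12), APK2 (-1.42 ± 0.14) and IPMDH1 (-1.28 ± 0.11) at 27 °C. In phyAB shoots 26 of 41 were lower at 21 °C and 23 at 27 °C, all 6 chain elongation and all 10 core structure genes among them at each temperature, against 20.2% and 23.7% of all genes. MYB76 was lower by 2.84 ± 0.36, IPMI-SSU2 by 1.64 ± 0.08, GSTF11 by 1.54 ± 0.14 and IPMDH1 by 1.45 ± 0.08 at 27 °C, where SDI2 was higher by 1.89 ± 0.23. All adjusted p of the genes named for phyAB here were at most 0.00457 in edgeR.

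Of 10 breakdown genes in phyAB shoots 4 were higher and 3 lower than in Col-0 at 21 °C, and 3 higher and 3 lower at 27 °C, against 18% and 18.8% of all genes higher and 20.2% and 23.7% lower. TGG1, TGG2 and ESM1 were those lower at both temperatures, by 0.29 to 1.02 on the log2 scale, and NSP1, NSP2 and NSP5 those higher at both. In hy5 shoots 2 were higher and 1 lower at 21 °C, and 3 higher and 1 lower at 27 °C, where TGG1 was the lower one each time. The largest called differences were those of NSP2, TGG5 and NSP4. NSP2, a seed-abundant relative of NSP3, had 4.03 to 23.4 CPM in phyAB shoots at 21 °C and 2.03 to 11.5 CPM at 27 °C, while Col-0 shoots had 0 to 0.141 CPM (edgeR adjusted p = 5e-05 and 0.000298). The 11 seed genes were also highest in phyAB shoots, and the part of seed remains in the NSP2 values was not tested. TGG5, a root myrosinase, was called higher in phyAB shoots at 21 °C (edgeR adjusted p = 0.0333). It had 0 to 2.01 CPM there against 0 to 0.117 CPM in Col-0, and these ranges overlap. NSP2 and TGG5 were too low in these Col-0 shoots to pass the filter on low counts there. Their entry into the test rested on other groups, so their calls add little to the levels. NSP4 was higher in hy5 shoots at 27 °C by 1.83 ± 0.56 (edgeR adjusted p = 0.0381), at 2.83 to 5.13 CPM against 0.534 to 1.76 CPM. NSP3 in these shoot groups stayed at 0.0575 to 1.05 CPM.

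Across hy5 roots 11 of the 36 pathway genes were higher than in Col-0 at each temperature, and 5 were lower at 21 °C and 4 at 27 °C, against 16.7% and 16% of all genes higher and 18.4% and 17.4% lower. In hy5 shoots 5 of 41 were higher and 10 lower at 21 °C, against 8.99% and 8.94% of all genes. At 27 °C 6 were higher and 5 lower, against 6.18% and 6.06%.

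The tested genes also went together over libraries, which share the groups and therefore the differences described above. Over the 18 root libraries Pearson's r of log2 CPM was 0.85 to 0.99 for the 21 pairs without NSP3, and 0.63 to 0.81 for the 7 pairs with NSP3. Over the 18 shoot libraries it was 0.37 to 0.98 for 36 pairs, and 0.16 to 0.41 for the 9 pairs with NSP3, whose shoot counts are near 0. Of 15495 genes with a mean of at least 5 CPM in roots, those most like MYB28 were AT2G31790 (UGT74C1, r = 0.986), IPMI1 (AT3G58990, listed above as IPMI-SSU3, 0.981) and APT4 (0.975). Those most like CYP83A1 in roots were AK3, an aspartate kinase (0.996), IPMI2 (AT2G43100, IPMI-SSU2, 0.986) and BAT5 (AT4G12030, BASS5, 0.985). Those most like NSP3 were TGA4, a bZIP factor (0.982), MAB1 (0.976) and AT1G24510 (0.974), none of them in the pathway list. In shoots AT1G13650 (0.953), GSTU20 (0.948) and AT4G10060 (0.947) were most like MYB28, and CB5-C (0.979), the sulfotransferase SOT17 (0.979) and IIL1 (0.974) most like CYP83A1. For NSP3 in shoots the highest values were 0.727, 0.640 and 0.629, for AT3G54630, CHR1 and XYP1.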

How the data were processed

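Total RNA of roots or shoots went into stranded mRNA libraries and was read from 1 end over 50 bases, per the labels' protocols. Reads were aligned to TAIR10 with TopHat2 and counted per gene with HTSeq, after FastQC, and edgeR was used afterwards, per the submitters' processing notes. Their versions, and whether counting used strand, are not known here. The values used are the deposited counts, whole numbers of reads per gene before scaling. Rows that name no gene were dropped before library sizes were taken. They are reads at more than 1 place (5% to 34.6% of reads per library), reads in no gene (0.697% to 1.81%) and ambiguous reads (0.0566% to 0.299%).

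edgeR 4.0.16 in R 4.3.3 was run with TMM factors, the default filter on low counts and quasi-likelihood tests, on 18 root libraries (20355 genes), 18 shoot libraries (20100 genes) and all 36 (21598 genes) for differences between organs. Group was the only term, over 22 contrasts, with Benjamini-Hochberg adjustment across the genes of each and 0.05 as the threshold. Levels are CPM on the scale of the fit of all libraries, as mean ± SD. Folds within an organ come from the fit of that organ and stand with their standard error. Standard errors are approximate, taken as the absolute log2 fold change divided by the square root of the F statistic of the test. Levels per kilobase use exon lengths of the RefSeq annotation of TAIR10.1, whose genome also gave the promoters and coding sequences. The deposited files hold no coordinates. Coding sequences were aligned with Biopython 1.88, and exon windows were placed with BWA 0.7.19-r1273. The fits were tested on simulated data. Counting intervals are exact at 95% and use a floor of 3 counts.

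The genes and lists were chosen with earlier results of these data known. Of the further pathway genes, the 8 with the largest called change in the Col-0 warm response and the 8 with the largest in a mutant against Col-0 were named per organ. For likeness, the 3 genes with the highest Pearson r of log2 CPM (prior count 2) to MYB28, CYP83A1 and NSP3 were named per organ. AOP2 is not analysed here. Alternatives were DESeq2 1.42.0, other scaling factors, no filter, a replicate block, fits of only the groups compared or of both organs, and leaving out libraries.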

Additional observations from a re-analysis of the deposited data

Results flagged for a closer look

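The results listed here were picked out because 2 groups' warm responses differed in a test of the difference itself, by the quasi-likelihood test of edgeR with p adjusted by Benjamini-Hochberg. All values are differences of log2 fold changes between 27 °C and 21 °C, and each rests on 3 libraries per group.

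In shoots the response of phyAB minus that of Col-0 was -1.04 for BCAT4 (adjusted p = 0.000803), -0.84 for CYP79F1 (0.0271) and -0.56 for MAM1 (0.023). All 3 phyAB libraries at 27 °C lay below all 3 at 21 °C for each of these genes, a separation that was not counted over all genes.

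The response in roots minus that in shoots in Col-0 was -0.83 for MYB28, -1.60 for MAM1, -2.05 for BCAT4, -1.40 for CYP79F2, -1.52 for CYP83A1 and -2.22 for FMO GS-OX3, with adjusted p of at most 3.69e-05, and -2.61 for NSP3 (adjusted p = 0.0257). The NSP3 call was lost without Col-0 shoot 27 °C replicate 1 or 3 or Col-0 shoot 21 °C replicate 2 (adjusted p of 0.0525 to 0.09). In hy5 it was -1.09 for MYB28, -1.55 for MAM1, -1.40 for BCAT4, -1.73 for CYP79F2 and -1.19 for CYP83A1, with adjusted p of at most 0.00011. It was -1.20 for FMO GS-OX3 (adjusted p = 0.0416), a call lost without any 1 of 7 of the 12 libraries (0.0572 to 0.156). These 7 were hy5 root 21 °C replicates 1 and 2, root 27 °C replicates 2 and 3, shoot 21 °C replicates 1 and 2 and shoot 27 °C replicate 3. In phyAB it was -0.84 for MYB28, -1.69 for MAM1, -1.79 for BCAT4, -1.58 for CYP79F2 and -1.81 for CYP83A1, with adjusted p of at most 8.44e-05. NSP3 was not called in hy5 (-2.62, adjusted p = 0.0517) or phyAB (-2.32, adjusted p = 0.0529), and DESeq2 called it in both (adjusted p = 0.000146 and 0.000303).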

How the results depend on the processing

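Of 3633 recomputed single-gene values, 3521 stayed on their side of the threshold, 81 no longer passed and 31 newly passed. Direction was compared only where the reported or the recomputed value passed, and 0 of those turned. Values that passed in neither fit may have changed sign uncounted. Counts of called genes kept within 1.5 times of the reported value except as follows. For phyAB minus Col-0 warm response in roots, the count of 0 became 1 without scaling factors, in DESeq2, without the filter, in the joint fit of both organs and with the replicate block. In each of these settings the gene was MAM3. For the hy5 warm response in shoots the count of 3 became 1 in the joint fit. For phyAB minus Col-0 warm response in shoots the count of 3 became 5 with the replicate block and 1 without the 3 shoot 27 °C libraries numbered 3, an alternative chosen after seeing the data. The causes of these changes were not tested.

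Leaving out single libraries, or all libraries of 1 replicate number, gave 3 to 5 called genes (5 reported) for hy5 against Col-0 in roots at 21 °C, 1 to 3 (3 reported) for the hy5 warm response in shoots, 2 to 5 (4 reported) and 0 to 5 (3 reported) for hy5 against Col-0 in shoots at 21 °C and 27 °C. It gave 0 to 1 (0 reported) and 0 to 4 (3 reported) for the difference between the phyAB and Col-0 warm responses in roots and shoots. Single libraries that moved a count by over 1.5 times were Col-0 root 27 °C replicate 2 (0 to 1), hy5 shoot 27 °C replicate 2 (3 to 1) and hy5 shoot 21 °C replicate 2 (4 to 2). For the phyAB response in shoots they were Col-0 shoot 27 °C replicate 2, phyAB shoot 21 °C replicate 2 and phyAB shoot 27 °C replicate 3 (3 to 1 each).

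The replicate numbers were not treated as pairs, since the labels give no shared source. Deviations of same-numbered libraries from their group means correlated at -0.15 to 0.22 in roots and -0.14 to 0.41 in shoots, over 45 pairs each, of which 13 and 18 exceeded 0.1, against 8 of 90 pairs with different numbers in each organ. All 3 pairs exceeded it in 1 of 15 pairs of root groups (phyAB at 21 °C and 27 °C) and in 2 of 15 of shoot groups (Col-0 at 27 °C with hy5 and with phyAB at 27 °C). In those 3 comparisons the block changed no call of the 10 genes. Besides the counts given above, the replicate block made CYP79F1 pass in hy5 against Col-0 shoots at 21 °C (adjusted p = 0.0385). Depth limits MYB29 and CYP79F1 in roots, NSP3 in shoots and FMO GS-OX3 in phyAB roots, which rest on few reads.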
